A study of Mus musculus with 30 samples.

Results

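The genes described here encode the subunits of the proteasome, measured in the uterus of young mice after estradiol or IGF1. They were taken from the array's annotation by name. A gene was included if a probe set carried a single symbol that began with Psma, Psmb, Psmc or Psmd followed by a number, and the 3 immunoproteasome subunits Psmb8, Psmb9 and Psmb10 were left out. This gave 38 of the 30142 genes with a probe set of 1 symbol. Of these 38, 30 are subunits of the constitutive proteasome, 13 in the core particle and 17 in the regulatory particle. The other 8 are the assembly chaperones Psmd5, Psmd9 and Psmd10, the tissue-restricted core subunits Psma8 and Psmb11, the pseudogenes Psmb5-ps and Psmb6-ps, and Psmc3ip, which has a similar name but encodes a recombination factor. The catalytic subunit Psmb5 shared its probe set with Mir686 and therefore has no value of its own.

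The proteasome is the barrel-shaped protease that degrades proteins tagged with ubiquitin. Its core particle is a stack of alpha rings, which gate the entry, and beta rings, in which a few subunits cut peptide bonds. The regulatory particle caps the core: a base of ATPases unfolds the substrate and threads it inwards, and a lid removes the ubiquitin chain. The genes of both particles are known to be induced together by the transcription factor Nfe2l1 when proteasome capacity falls short. In the uterus of an immature animal, estradiol is known to set off rapid growth, first with swelling and new RNA and protein synthesis and later with division of the epithelium, and IGF1 is a growth factor made in the tissue that acts in the same response.

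Whole uteri came from 21-day-old female mice before puberty, either wild type (WT) or lacking estrogen receptor alpha (KO, genotype Ex3aERKO). The vehicle groups received 1 injection of 100 ul of saline into the peritoneum and were collected at 24 h only. Each change at 2 h below was therefore measured against tissue taken at another time. The E2 groups received 250 ng of estradiol (E2) in the same volume of saline and were collected at 2 h or 24 h. The IGF1 groups received 50 ug of IGF1 in PBS, as 1 injection with collection at 2 h or as 3 injections with collection 24 h after the first of them, and no group received PBS alone. Each change at 24 h of IGF1 thus set 3 injections against 1 of vehicle, and the part of the injections was not tested. These 2 genotypes and 5 treatments made 10 groups with 3 arrays each. The labels do not say how many animals went into a replicate, and a p-value here reflects the spread among these RNA samples, which may be technical.

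The deposited values were log2 intensities, and 1 unit is a 2-fold step. Array medians lay between 6.17 and 6.47, and the mean correlation of an array with the others of its group lay between 0.975 and 0.994. As a floor, each array was given the 95th percentile of its values for 1225 odorant receptor genes, which a uterus is not known to use; it lay between 5.69 and 6.57. Esr1, the gene of the deleted receptor, was at 9.38 to 10.41 on the KO arrays and at 11.44 to 12.73 on the WT arrays, so it was lower on every KO array. Xist, the RNA of the inactive X chromosome, was at 10.16 on the array labelled WT vehicle replicate 1 and between 17.01 and 18.12 on the other 29 arrays, although the labels call every animal female; 3 measured genes of the Y chromosome were between 4.61 and 5.43 on all 30 arrays. That array is a control of every WT comparison with vehicle, and the count of constitutive subunits called in each comparison that uses it is given with and without it. All changes below are from limma fitted to all genes and all 30 arrays, with Benjamini-Hochberg adjustment over the 30142 genes, and a gene is called at an adjusted p under 0.05.

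All 30 constitutive subunits were above the floor in each of the 10 groups. The tissue-restricted genes were not: Psma8, a testis form of an alpha subunit, lay between 4.32 and 5.82, and Psmb11, the thymus form of a catalytic subunit, between 4.43 and 5.26. The pseudogene Psmb6-ps was also at the floor. The stretches below show, upstream of the start site, the letters CCGGAAG, a core recognized by ETS factors, because their share stood furthest apart between the particles among the motifs searched. Promoters from RefSeq on GRCm38.p6, 300 bases each, were matched for 24 of the 30 subunits, and both strands were searched. The capitals mark the match, and CTTCCGG is the same motif on the other strand.
Psma6 (alpha ring), chr12:55398681-55398711, plus strand: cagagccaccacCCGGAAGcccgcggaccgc
Psmc1 (ATPase), chr12:100110162-100110192, plus strand: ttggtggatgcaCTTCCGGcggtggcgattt
Psmc2 (ATPase), chr5:21786711-21786741, plus strand: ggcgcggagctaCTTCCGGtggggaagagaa
Psmc6 (ATPase), chr14:45329712-45329742, plus strand: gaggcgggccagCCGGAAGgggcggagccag
Psmd2 (base scaffold), chr16:20651614-20651644, plus strand: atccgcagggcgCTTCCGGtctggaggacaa
Psmd4 (ubiquitin receptor), chr3:95042721-95042751, minus strand: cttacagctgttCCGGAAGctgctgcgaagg
Psmd6 (lid), chr14:14120972-14121002, minus strand: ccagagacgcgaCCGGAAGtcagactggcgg
Psmd11 (lid), chr11:80428592-80428614, plus strand: gcgagggcgggtCTTCCGGgtgt
Psmd12 (lid), chr11:107479499-107479527, plus strand: atgagcgggcgaCTTCCGGtgcgagtgac

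These letters were found in 9 of 14 matched regulatory subunits (64.29%) and in 1 of 10 matched core subunits (Psma6), against 2683 of 27025 genes in the whole table (9.93%). The ninth regulatory gene, Psmd13, has them across its start site and is not printed, and Psmc2 also has them upstream of another start site. The antioxidant response letters TGACNNNGC, read by Nfe2l1 and its relatives, were in 3 of 24 subunits (12.5%) against 13.99% of all genes. The 3 were the catalytic Psmb6, the ATPase Psmc6 and the lid subunit Psmd12, shown here because Nfe2l1 itself moved in these samples.
Psmb6, chr11:70525336-70525356, plus strand: gactaaagagagTGACGGAGC
Psmc6, chr14:45329585-45329617, plus strand: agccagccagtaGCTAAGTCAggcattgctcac
Psmd12, chr11:107479278-107479301, plus strand: tctGCTGTGTCAcatttgcccccc

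The E-box CACGTG was in 1 of 24 (Psma4) against 8.09% of all genes, and the palindromic estrogen response element was in 0 of 24 against 20 of 27025 genes. These are matches of letters and say nothing of binding.

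Under vehicle, the constitutive subunits did not differ between the genotypes in a way the test could call. In KO vehicle against WT vehicle, 0 of 30 constitutive subunits were called by limma, and 0 had an unadjusted p under 0.05, while 2.92% of all genes were called in either direction; without WT vehicle replicate 1 the count was also 0. The median difference was 0.05 for the core and -0.06 for the regulatory particle on the log2 scale. Single genes ranged from -0.61 for the lid subunit Psmd8 to 0.55 for the ATPase Psmc5. The tissue itself was not alike: 5 of 12 epithelial markers were called higher in KO vehicle, and all 12 were above 0 (median 1.19). No marker of the other cell lists was called, and the part of these cells was not tested.

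Estradiol at 24 h in WT uteri raised the constitutive subunits of both particles. All 30 of 30 were called higher than vehicle, against 16.8% of all genes, and 29 of them by at least 2-fold; with quantile normalization 27 were called and Psma3 was below 0. The median change was 1.59 for the core and 1.55 for the regulatory particle on the log2 scale, and -0.10 over all genes. The same 30 of 30 were called without WT vehicle replicate 1, with a median over both particles of 1.57. In bulk tissue such as this, more RNA per cell and more cells of a type rich in it cannot be told apart.

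**Figure D1:**
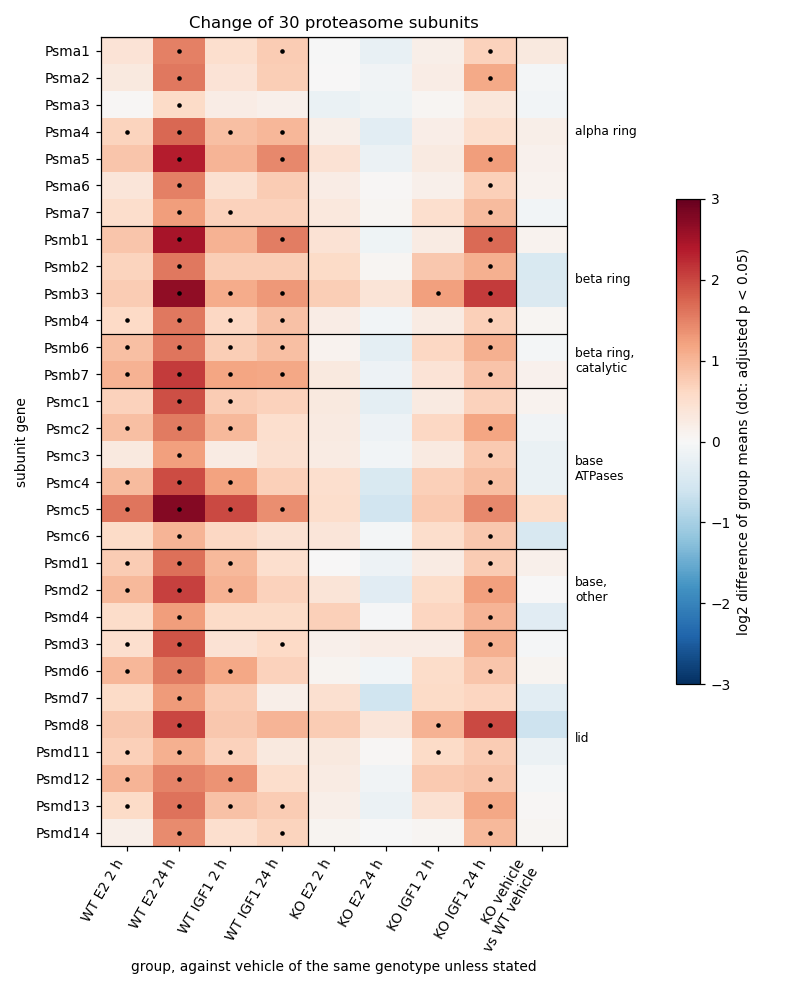
Log2 change of the 30 constitutive subunits (rows, grouped by class) in 9 comparisons (columns), in colour, with a dot where limma called the gene at an adjusted p under 0.05. The column of WT E2 at 24 h has a dot in all 30 rows, that of KO IGF1 at 24 h in 26, and the columns of KO E2 in none.

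The largest change was that of Psmc5, an ATPase of the base. Its log2 value was 11.68, 12.15 and 12.31 on the WT vehicle arrays and 14.78, 14.90 and 14.72 on the WT E2 24 h arrays. The groups stood far apart, by 2.75 ± 0.34 (SE, n = 3 against 3; limma adjusted p = 1.12e-06), a 6.74-fold rise. The other ATPases rose too: Psmc4 by 1.96, Psmc1 by 1.92, Psmc2 by 1.55, Psmc3 by 1.22 and Psmc6 by 1.02 on the log2 scale.

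Within the core, Psmb3, a beta-ring subunit without catalytic activity, rose most. It read 8.66, 8.80 and 9.17 in WT vehicle and 11.29, 11.69 and 11.65 in WT E2 24 h, a 6.36-fold rise (2.67 ± 0.37, adjusted p = 5.97e-06). Psmb1, another beta-ring subunit without catalytic activity, read 9.74, 11.10 and 10.99 in WT vehicle and 12.80, 13.27 and 13.16 in WT E2 24 h. The rise of Psmb1 was 5.52-fold (2.46 ± 0.37, adjusted p = 1.87e-05), and 2.03 on the log2 scale without the first vehicle array, on which it was lowest.

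Both catalytic subunits with a value rose. Psmb7, the trypsin-like subunit, read 11.35, 12.04 and 12.12 in WT vehicle and 13.93, 13.96 and 13.94 in WT E2 24 h (2.11 ± 0.27, adjusted p = 2.38e-06, 4.31-fold). Psmb6, the caspase-like subunit, read 10.47, 10.41 and 10.37 and then 11.92, 12.17 and 11.96 (1.60, adjusted p = 1.1e-05, 3.03-fold). In neither gene did an E2 array come near a vehicle array. The pseudogene Psmb5-ps, whose probes may also catch the parent gene, rose by 2.49 (adjusted p = 1.96e-07).

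The alpha ring held both large and small changes. Psma5 rose 5.11-fold (adjusted p = 4.42e-05): it read 11.83, 13.44 and 13.48 in WT vehicle and 15.26, 15.28 and 15.27 in WT E2 24 h, and without the first, low array the change was 1.81 on the log2 scale in place of 2.35. Psma3 changed least of all 30 subunits, from 13.77, 13.75 and 13.57 to 14.22, 14.25 and 14.38 (0.58 ± 0.15, adjusted p = 0.00548, 1.5-fold). Its groups did not overlap, but with quantile normalization its change was -0.12. The other 5 alpha subunits lay between these, from 1.26 for Psma7 to 1.72 for Psma4.

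In the rest of the regulatory particle, the base scaffolds Psmd2 and Psmd1 rose 4.17-fold (adjusted p = 2.45e-07) and 3.15-fold (adjusted p = 1.66e-07). Psmd1 went from 10.52, 10.67 and 10.67 to 12.09, 12.43 and 12.31. The ubiquitin receptor Psmd4 read 9.88, 10.10 and 10.07 in WT vehicle and 11.24, 11.31 and 11.29 in WT E2 24 h (1.26 ± 0.25, adjusted p = 0.000445). Psmd14, the metalloprotease that cuts ubiquitin chains off the substrate, went from 10.27, 10.20 and 10.09 to 11.54, 11.63 and 11.67 (1.43 ± 0.19, adjusted p = 2.52e-06, 2.69-fold). Psmd1, Psmd4 and Psmd14 were higher on every E2 array than on any vehicle array. The remaining 7 lid subunits rose by between 1.06 for Psmd11 and 2.01 for Psmd8. The medians of the 6 classes were 1.52 in the alpha ring, 2.03 in the non-catalytic and 1.85 in the catalytic beta subunits, 1.74 in the ATPases, 1.66 in the other base subunits and 1.52 in the lid.

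**Figure D2:**
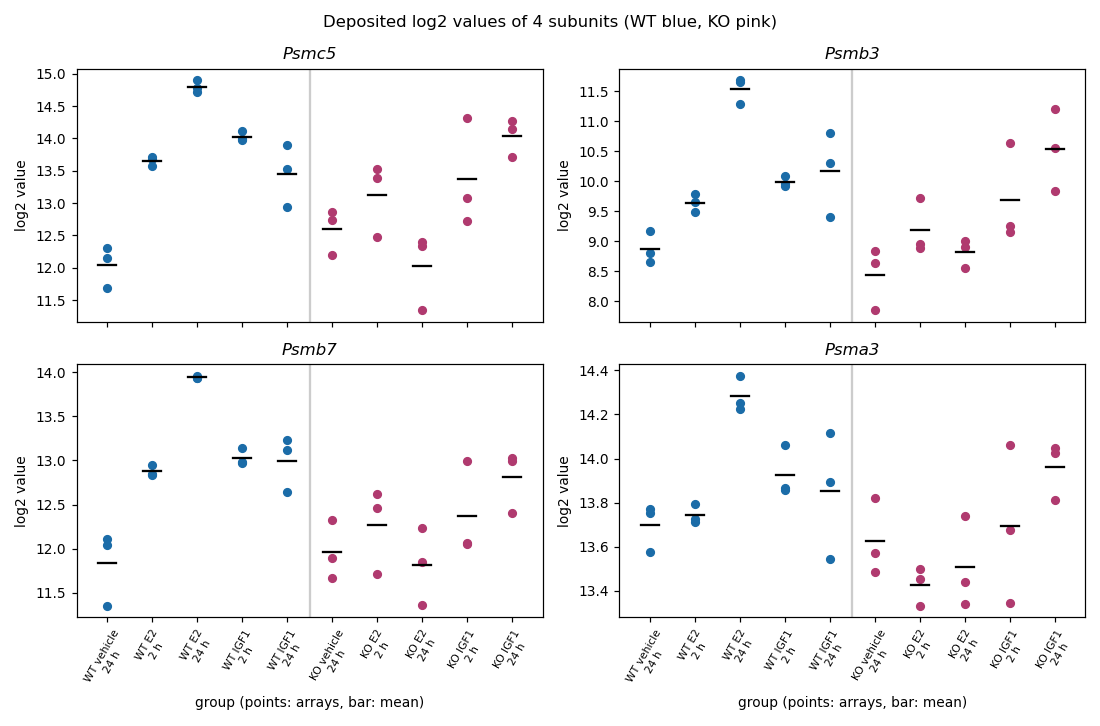
Log2 value on each array of Psmc5, Psmb3, Psmb7 and Psma3 in the 10 groups, with a bar at the mean of each group. In the first 3 genes the WT E2 24 h arrays are the highest of all groups, and Psma3 changes by 0.58 in WT E2 24 h.

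Markers of other cells moved along with this. The test called 10 of 12 epithelial markers higher at 24 h of E2 in WT, and their mean log2 level went from 8.68 to 8.98 in vehicle to 11.26 to 11.33. All 7 of 7 markers of cycling cells were called higher, from 6.53 to 6.93 up to 10.47 to 11.21. Granulocyte and B-cell markers Mpo, Epx, Siglecf, Cd79a and Ms4a1 and the ovarian markers Foxl2 and Amh were at the floor in all groups. Among the other lists, 3 of 10 stromal, 2 of 8 myometrial, 1 of 8 macrophage and 1 of 8 granulocyte markers were called higher. Called lower were 1 of 10 stromal, 2 of 7 endothelial and 1 of 6 lymphocyte markers. Over all genes 16.8% were called higher and 13.3% lower. The part of the marker genes in the rise of the subunits was not tested.

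In the KO uterus, estradiol called no subunit at 24 h. The count was 0 of 30 in KO E2 24 h against KO vehicle, with limma, where 0% of all genes were called, and 0 subunits had an unadjusted p under 0.05. The median change was -0.12 in the core and -0.10 in the regulatory particle, and 7 of 30 values were above 0. Psmc5 read 12.74, 12.20 and 12.86 in KO vehicle and 12.34, 11.34 and 12.40 in KO E2 24 h, so these groups overlapped. The KO E2 24 h arrays had a floor of 6.21, 6.57 and 6.09, against 6.23, 5.98 and 6.06 in KO vehicle. Replicate 2 had the highest median (6.47) and floor of all 30 arrays, and without it the count was also 0. The number of probe sets at the top value of the series was 0 on all 3 KO E2 24 h arrays, against 0, 95 and 94 in KO vehicle. This number was also 0 on WT vehicle replicates 1 and 3 and on WT E2 24 h replicate 2. The part of array quality was not tested.

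The difference between the genotypes was itself tested as an interaction, the KO change minus the WT change. At 24 h of E2 it was called below 0 for all 30 of 30 subunits (25 with quantile normalization), against 12.2% of all genes called lower. The medians were -1.73 for the core and -1.66 for the regulatory particle on the log2 scale, where the median of all genes was 0.19. Psmc5 had the largest difference (-3.33 ± 0.48, adjusted p = 2.88e-05) and Psma3 the smallest (-0.71 ± 0.22, adjusted p = 0.0234). For Psma3 the call is not stable: the adjusted p was 0.0714 without KO vehicle replicate 3, 0.0689 without KO E2 24 h replicate 2, 0.0554 without WT E2 24 h replicate 3 and 0.0501 without WT vehicle replicate 3, and quantile normalization gave 0.09. Without WT vehicle replicate 1 the count was 29 of 30, the ATPase Psmc6 then having an adjusted p of 0.0556 in place of 0.0202. In the same interaction, 9 of 12 epithelial, 7 of 7 cycling, 2 of 10 stromal, 3 of 8 myometrial and 1 of 8 granulocyte markers were called lower. Called higher were 1 of 7 endothelial and 2 of 6 lymphocyte markers, and the part of these cells was not tested.

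Estradiol at 2 h gave a smaller, partial rise in WT. Of the 30 subunits, 14 were called higher than the 24 h vehicle, 4 in the core and 10 in the regulatory particle, against 9.84% of all genes. All 30 changes were above 0 (28 with quantile normalization), with medians of 0.66 and 0.71. At least 2-fold were Psmc5, Psmb7 and the lid subunit Psmd12. Without WT vehicle replicate 1, 10 of 30 were called, with a median of 0.58 in place of 0.68.

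Psmc5 again led, with 13.71, 13.68 and 13.58 on the WT E2 2 h arrays (1.61 ± 0.34, adjusted p = 0.0011, 3.05-fold). Psmd12 read 12.09, 11.97 and 11.92 in vehicle and 12.99, 12.89 and 13.18 at 2 h (1.03, adjusted p = 0.00574, 2.04-fold). Psmb7 read 12.95, 12.85 and 12.84 at 2 h (1.04 ± 0.27, adjusted p = 0.00729, 2.06-fold), but without WT vehicle replicate 1 its change was 0.80 and its adjusted p 0.0637. Psmb6, at 11.27, 11.29 and 11.42, changed by 0.90 ± 0.23 (adjusted p = 0.00627), and all its 2 h arrays were above all its vehicle arrays.

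Some subunits had hardly moved by then. Psma3 was at 13.71, 13.79 and 13.73, which overlapped its vehicle values (0.04), and Psmd14 at 10.37, 10.46 and 10.29, just above them (0.19, adjusted p = 0.561). By class, 1 of 7 alpha subunits was called (median 0.42), 1 of 4 non-catalytic beta subunits (0.72), both catalytic subunits (0.97), 3 of 6 ATPases (0.80), 2 of 3 other base subunits (0.75) and 5 of 8 lid subunits (0.65). The alpha subunit in that count was Psma4, whose change fell from 0.66 to 0.28 (adjusted p = 0.443) without WT vehicle replicate 1, where it read 9.35 against 10.54 and 10.45 on the other vehicle arrays; its call was also lost without any single WT E2 2 h array. At 2 h, 0 of 7 cycling markers were called, and 6 of 10 markers of uterine stroma were called lower, with a mean level of 10.29 to 10.37 against 11.36 to 11.81 in vehicle. Of the other lists, 3 of 12 epithelial markers were called higher (up to 2.36), and 2 of 7 endothelial markers and 1 of 7 mesothelial, ovarian and oviductal markers lower; the part of these cells was not tested.

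From 2 h to 24 h of E2 the subunits rose further. The direct comparison called 25 of 30 higher at 24 h, against 17% of all genes, all 13 of the core and 12 of the 17 in the regulatory particle. The median was 1.07 for the core and 0.93 for the regulatory particle. Psmb3 had the largest step (1.90), and the smallest was in the lid subunit Psmd11 (0.35, not called), which had read 11.04, 10.87 and 11.21 at 2 h and 11.41, 11.29 and 11.47 at 24 h. Psmc6, Psmd6, Psmd7 and Psmd12 were the others not called, all in the regulatory particle. In the same comparison 11 of 12 epithelial (median 2.18), 8 of 10 stromal (2.11) and 7 of 7 cycling markers (4.21) were called higher. So were 1 of 8 myometrial, 2 of 7 endothelial, 1 of 8 macrophage and 1 of 8 granulocyte markers. Called lower were 1 of 10 stromal, 1 of 7 endothelial, 2 of 6 lymphocyte and 1 of 7 mesothelial, ovarian and oviductal markers. The part of these cells was not tested.

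In KO uteri 2 h after E2, limma called 0 of 30, where 0.365% of all genes were called in either direction, and 4 subunits had an unadjusted p under 0.05. The medians were 0.21 and 0.28, with 28 of 30 above 0. The interaction at 2 h called 0 of 30 with limma, against 8% of all genes, and 7 subunits had an unadjusted p under 0.05, so at 2 h a difference between the genotypes was not shown for any subunit. Without WT vehicle replicate 1 this count and those of both IGF1 interactions were also 0. The medians of the E2 interaction at 2 h were -0.37 in the core and -0.40 in the regulatory particle. In the same interaction 6 of 10 stromal, 2 of 7 endothelial and 1 of 8 macrophage markers were called higher and 2 of 12 epithelial markers lower. In KO E2 2 h against KO vehicle 1 of 8 macrophage markers was called higher, and the part of these cells was not tested.

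IGF1 at 2 h in WT resembled estradiol at 2 h in size. It called 16 of 30 higher than vehicle, 6 in the core and 10 in the regulatory particle, against 9.54% of all genes, and 7 by at least 2-fold. The medians were 0.73 and 0.81, and 11 of 30 were called without WT vehicle replicate 1. Psmc5 read 14.11, 13.99 and 13.97 (1.97 ± 0.34, adjusted p = 0.000208, 3.93-fold) and Psmd12 13.37, 13.37 and 13.27 (1.34, adjusted p = 0.000709), and in both genes all IGF1 arrays were above all vehicle arrays. Psmb7 was at 13.14, 12.98 and 12.97 (1.19, adjusted p = 0.00292). The calls of Psmb6 (0.73, adjusted p = 0.0295) and Psmb3 (1.11, adjusted p = 0.0388) were fragile: that of Psmb6 was lost without any single one of the 6 arrays compared, with adjusted p between 0.0591 and 0.075, and that of Psmb3 without any but WT vehicle replicate 3, with adjusted p between 0.0777 and 0.129. At 2 h of IGF1 in WT, 6 of 12 epithelial (median 0.79), 2 of 8 myometrial (0.76), 1 of 10 stromal and 1 of 7 endothelial markers were also called higher, and their part was not tested.

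By class, IGF1 at 2 h called 2 of 7 alpha subunits (median 0.50), 2 of 4 non-catalytic beta subunits (0.88), both catalytic subunits (0.96), 4 of 6 ATPases (0.86), 2 of 3 other base subunits (0.98) and 4 of 8 lid subunits (0.79). The direct comparison of E2 with IGF1 at 2 h called 0 of 30 with limma, where 5.57% of all genes were called in either direction, and 0 had an unadjusted p under 0.05. Its single values for the subunits lay between -0.37 and 0.17 on the log2 scale, with medians of -0.15 and -0.08. The E2 and IGF1 changes share the same vehicle arrays, so their likeness is given only by these values.

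At 24 h of IGF1 in WT the rise was uneven between arrays. The count was 12 of 30 called higher, 8 in the core and 4 in the regulatory particle, against 3.32% of all genes, with medians of 0.89 and 0.60. The 24 h IGF1 arrays differed among themselves: Psmb3 read 10.81, 9.41 and 10.31, Psmb6 11.72, 10.78 and 11.49, and Psmc5 13.54, 12.94 and 13.89, so replicate 2 was the lowest each time. The count was 2 without WT vehicle replicate 1, 8 without WT vehicle replicate 2, 6 without WT vehicle replicate 3, 0 without IGF1 replicate 1, 0 without IGF1 replicate 3 and 18 without IGF1 replicate 2.

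The largest IGF1 24 h change was that of Psmb1, with 12.69, 11.74 and 12.05 on the IGF1 arrays (1.54, adjusted p = 0.0191, 2.92-fold; 1.11 and adjusted p = 0.135 without WT vehicle replicate 1). Psmc5 changed by 1.41 ± 0.34 (adjusted p = 0.0187; 0.095 without that array) and Psmb7 by 1.16 (0.0161; 0.104 without it). The called members were 3 of 7 alpha, 3 of 4 non-catalytic beta and 2 of 2 catalytic subunits in the core, and 1 of 6 ATPases, 0 of 3 other base subunits and 3 of 8 lid subunits in the regulatory particle. Every one of the 12 calls was lost without at least 1 of the 6 arrays. Of 7 cycling markers, 7 were called higher (8.54 to 8.64), and so were 2 of 12 epithelial (9.35 to 9.49), 2 of 10 stromal and 2 of 8 myometrial markers; their part was not tested.

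Set directly against IGF1 at 24 h, E2 was higher in WT for 23 of 30 subunits, 8 in the core and 15 in the regulatory particle, against 7.59% of all genes. The medians were 0.76 for the core and 0.99 for the regulatory particle, the values lay between 0.43 and 1.37, and 9 were at least 2-fold. Psmd1 stood 1.16 higher after E2 (11.15, 10.78 and 11.42 on the IGF1 arrays against 12.09, 12.43 and 12.31), and its arrays did not overlap. This count was 9 without IGF1 24 h replicate 2, 12 without E2 24 h replicate 2, 13 without E2 24 h replicate 3 and 13 with quantile normalization, while all 30 subunits had an unadjusted p under 0.05 in the fit to all arrays. In the same comparison 8 of 12 epithelial (median 1.78), 7 of 7 cycling (2.06), 1 of 10 stromal and 1 of 8 granulocyte markers were called higher. Called lower were 1 of 10 stromal, 1 of 7 endothelial and 1 of 6 lymphocyte markers, and the part of these cells was not tested. The agents were given in different ways, E2 once and IGF1 by 3 injections.

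Over time under IGF1 in WT, 1 of 30 was called, and 5 had an unadjusted p under 0.05. Psmd12 fell from 2 h to 24 h by 0.81 (SE 0.26, adjusted p = 0.039), from 13.37, 13.37 and 13.27 to 12.97, 12.01 and 12.60, against 6.57% of all genes called lower. Its call was lost without any single IGF1 2 h array and without IGF1 24 h replicate 2, where the count of the comparison was 0. The count was 1 without IGF1 24 h replicate 1 or 3. The particles leaned apart here, with 10 of 13 core subunits above 0 (median 0.19) and 4 of 17 regulatory subunits (median -0.35).

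In the uterus without the receptor, IGF1 raised most subunits at 24 h. Against KO vehicle 26 of 30 were called higher, 11 in the core and 15 in the regulatory particle, where 9.28% of all genes were called higher, and 13 were at least 2-fold. The medians were 0.96 and 0.89. The exceptions were Psma3, Psma4, Psmc1 and Psmd7, with changes of 0.34, 0.50, 0.70 and 0.64. With each array left out in turn the count lay between 18 and 27.

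Psmb3 led, with 8.64, 7.85 and 8.84 in KO vehicle and 9.84, 10.56 and 11.20 in KO IGF1 24 h (2.09 ± 0.37, adjusted p = 0.000531, 4.26-fold). Psmd8 followed, with 9.68, 8.90 and 9.58 and then 10.87, 11.31 and 11.92 (1.98, adjusted p = 0.000161, 3.94-fold). Psmb1 read 10.38, 10.69 and 11.07 and then 12.09, 12.44 and 12.69 (1.70, adjusted p = 0.00308), and Psmc5 read 14.14, 14.28 and 13.72 after IGF1 (1.45 ± 0.34, adjusted p = 0.00493). In these 4 genes no IGF1 array overlapped a vehicle array. Psmd14 was at 11.17, 11.36 and 11.08 against 10.27, 9.99 and 10.45 (0.97, adjusted p = 0.00104) and Psmb6 changed by 1.06 (adjusted p = 0.0031). Psmb7 changed by 0.85 (adjusted p = 0.0394), a call lost without KO vehicle replicate 1 (0.097) or 2 (0.17) or without IGF1 replicate 2 (0.145) or 3 (0.145), and that of Psmd4 (1.02, adjusted p = 0.00711) was lost without KO vehicle replicate 1 (0.063).

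Alongside, 4 of 7 cycling markers (7.05 to 8.72 against 6.02 to 6.97), 3 of 12 epithelial markers (9.96 to 10.76 against 9.61 to 9.98) and 5 of 10 stromal markers were called higher in KO IGF1 24 h. So were 1 of 8 myometrial, 2 of 7 endothelial, 1 of 8 macrophage and 1 of 8 granulocyte markers. Called lower were 1 of 10 stromal and 1 of 7 mesothelial, ovarian and oviductal markers, and the part of these cells was not tested. Of the 12 subunits called in WT at 24 h of IGF1, 11 were also called in KO, which is 11 of the 26 called there. With 26 of 30 called in KO, most of any 12 subunits would be among them, so this overlap is no measure of likeness. The interaction at 24 h of IGF1 called 0 of 30 with limma, where 0.00664% of all genes were called, and 4 subunits had an unadjusted p under 0.05. Its medians were 0.14 and 0.34, so no difference between the genotypes was shown under IGF1, and none was excluded either.

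At 2 h in KO uteri IGF1 called 3 of 30, Psmb3, Psmd8 and Psmd11, against 4.19% of all genes called higher. The medians were 0.25 in the core and 0.56 in the regulatory particle. Psmb3 read 10.64, 9.25 and 9.15 (1.24 ± 0.37, adjusted p = 0.042) and Psmd8 11.02 on replicate 1 and 10.25 or less on the others (1.03, adjusted p = 0.0382), so replicate 1 stood highest in both. Psmd11 read 10.97, 10.61 and 10.59 against 10.16, 10.04 and 10.28 in vehicle (0.57, adjusted p = 0.014). The count was 0 without IGF1 replicate 1, 0 without KO vehicle replicate 2 and 11 without IGF1 replicate 3. In that comparison 3 of 8 myometrial (median 1.19) and 2 of 12 epithelial markers (0.18) were called higher, and 1 of 7 mesothelial, ovarian and oviductal markers lower; their part was not tested. The interaction at 2 h of IGF1 called 0 of 30 with limma against 0.0133% of all genes, with 3 unadjusted p under 0.05, and IGF1 against E2 at 2 h in KO called 0 of 30 with limma against 3.04% of all genes, with 3 unadjusted p under 0.05.

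The order of the subunits under E2 in WT and under IGF1 in KO, which share no array, was partly alike at 24 h. Across the 30 genes the changes had a Pearson correlation of 0.71 and a Spearman correlation of 0.57. This is a description, since the genes are not independent and each was read by the same probe set in both comparisons. Psmb3, Psmb1 and Psmc5 took places 2, 3 and 1 by size of change in WT E2 and 1, 3 and 4 in KO IGF1, and Psma3 took place 30 in both. Psma4 and Psmc1 parted most from this, at places 11 and 9 in WT E2 and 29 and 27 in KO IGF1. Psmb7 (5 and 17), Psmc2 (19 and 7) and Psmd4 (25 and 13) also changed place.

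**Figure D3:**
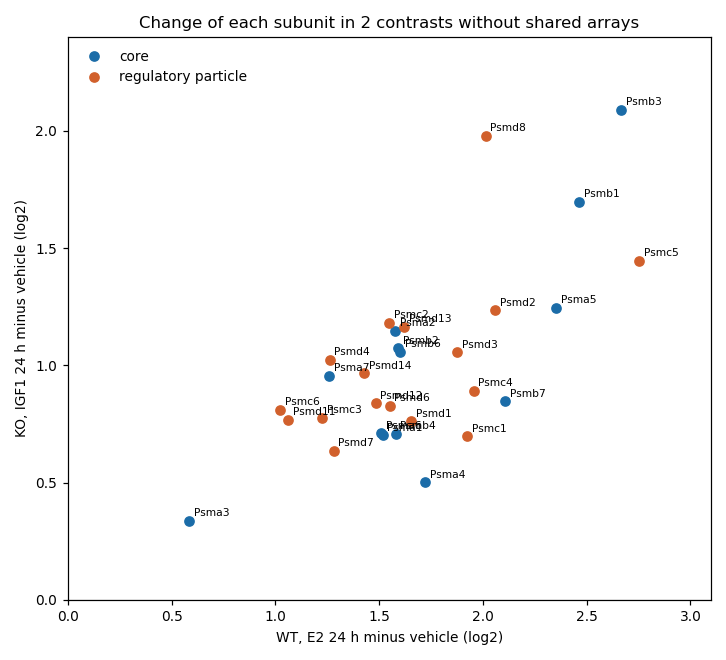
Log2 change of each of the 30 constitutive subunits in WT E2 24 h (horizontal axis) and in KO IGF1 24 h (vertical axis), each against the vehicle of its genotype, coloured by particle. Psmb3, Psmc5 and Psmb1 lie at the upper right and Psma3 at the lower left.

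The level of all subunits together was followed array by array. The mean log2 difference from the WT vehicle mean over all 30 subunits was 0.63 to 0.76 on the WT E2 2 h arrays, 1.58 to 1.75 at 24 h of E2, 0.78 to 0.86 at 2 h and 0.42 to 0.97 at 24 h of IGF1, and -0.16 to 0.09 in vehicle. In KO it was -0.20 to 0.20 in vehicle, -0.08 to 0.49 and -0.50 to 0.04 at 2 h and 24 h of E2, 0.14 to 0.95 at 2 h of IGF1 and 0.77 to 1.06 at 24 h of IGF1. The WT E2 24 h arrays were thus higher than all others.

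The core minus the regulatory particle, on the same scale, was -0.17 to -0.05 at 2 h of E2 and -0.18 to -0.06 at 2 h of IGF1 in WT, where all 6 arrays were below 0. It was 0.08 to 0.14 at 24 h of E2 and 0.16 to 0.51 at 24 h of IGF1, where all 6 were above 0. The WT vehicle arrays spanned -0.25 to 0.13, so the 24 h IGF1 arrays lay wholly outside them. The lower end of that span is replicate 1 alone, and it lowers the vehicle mean that serves as 0. The other vehicle arrays were at 0.12 and 0.13, and all 6 arrays at 2 h of E2 or IGF1 lay below those. The 24 h E2 arrays, at 0.08, 0.09 and 0.14, were close to those vehicle arrays, so a shift towards the core was not shown there. In KO the difference was -0.02 to 0.16 in vehicle, -0.15 to 0.18 and 0.04 to 0.20 at 2 h and 24 h of E2, and -0.29 to 0.15 and -0.09 to 0.20 at 2 h and 24 h of IGF1. Between the medians of the particles, the difference in the change from vehicle was 0.29 at 24 h of IGF1 in WT (0.11 without IGF1 replicate 1). At 24 h of E2 in WT it was 0.04, and -0.027 without E2 24 h replicate 2. In KO at 2 h of IGF1 it was -0.31, and -0.076 without IGF1 replicate 2. At 2 h it was -0.05 for E2 and -0.08 for IGF1, and -0.27 and -0.32 without WT vehicle replicate 1, the array with the lowest core.

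**Figure D4:**
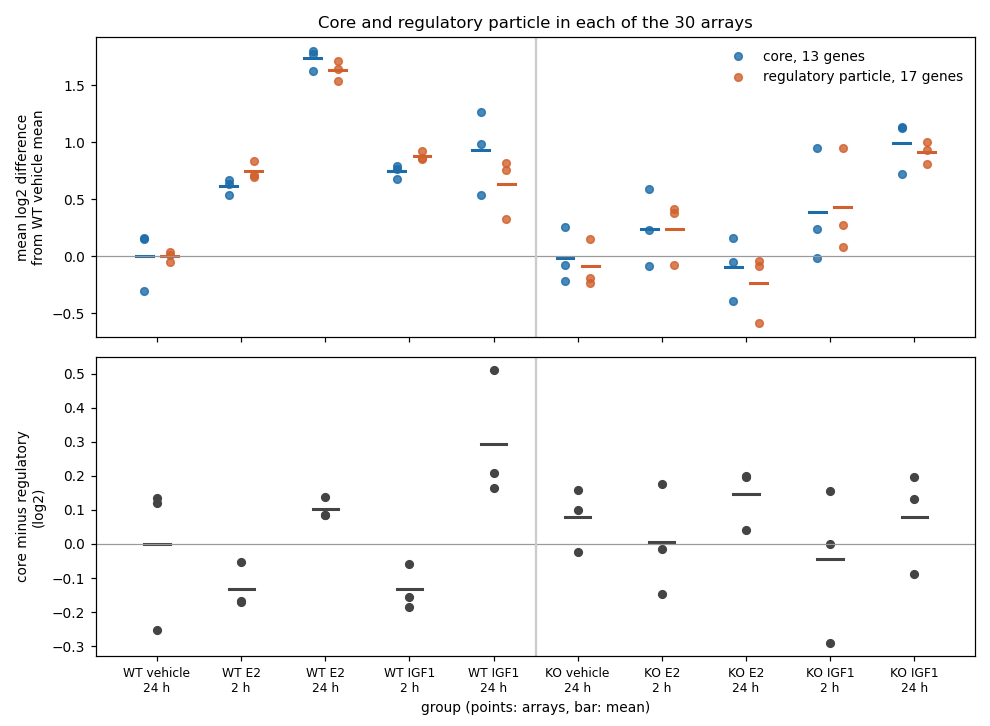
Upper panel: mean log2 difference from the WT vehicle mean of the 13 core and the 17 regulatory subunits on each array, by group. Lower panel: core minus regulatory on each array. The core lies below the regulatory particle on all 6 WT arrays at 2 h of E2 or IGF1, and above it on all 6 at 24 h. The E2 24 h arrays (0.08 to 0.14) lie close to WT vehicle replicates 2 and 3 (0.12 and 0.13).

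Among regulatory subunits, the printed ETS letters went with no larger change. At 24 h of E2 in WT the 9 genes with the letters had a median of 1.55 (9 called) and the 5 matched genes without them a median of 1.96 (5 called). At 2 h of E2 the medians were 0.71 (6 called) and 0.80 (3 called), and in KO at 24 h of IGF1 0.84 (8 called) and 0.97 (5 called). Psmc5, with the largest change under E2, has no such letters in the window searched. The split was made after the values were seen and has no test.

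The members outside the constitutive classes gave a mixed picture. At 24 h of E2 in WT the base chaperones rose, Psmd10 (gankyrin) by 1.37 (adjusted p = 0.00106), Psmd5 by 0.79 and Psmd9 by 0.60. Psmd10 read 9.29, 9.51 and 9.73 in vehicle, 9.32, 9.40 and 9.18 at 2 h of E2 and 10.95, 11.13 and 10.56 at 24 h, so it was higher only at the later time. None of the 3 was called at 2 h of E2, and Psmd5 alone was called at 2 h of IGF1 (0.77).

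The proteasome's partners were followed through a list of 38 further measured genes. At 24 h of E2 in WT, 23 were called higher (against 16.8% of all genes) and 2 lower (13.3%), and 16 and 2 without WT vehicle replicate 1. At 2 h of E2 the counts were 11 higher (9.84%) and 2 lower (9.18%), and 9 and 2 without that array. IGF1 at 2 h called 14 higher (9.54%) and 3 lower (7.64%), and 11 and 3 without it. At 24 h of IGF1 limma called 0 in either direction, with that array or without it, and 13 of the 38 had an unadjusted p under 0.05. Of all 30142 genes, 1001 were called higher and 290 lower there, in the fit to all arrays. In KO limma called 0 for E2 at 2 h, where 0.365% of all genes were called in either direction, and 0 at 24 h, where 0% were. Of the 38, 8 and 4 had an unadjusted p under 0.05 at these times. IGF1 in KO called 5 higher (4.19%) and 2 lower (2.95%) at 2 h, and 10 higher (9.28%) and 1 lower (4.35%) at 24 h. The E2 interaction called 7 at 2 h, 3 of them above 0, against 8% of all genes, and 15 below 0 at 24 h against 12.2%; without WT vehicle replicate 1 these counts were 5 and 12.

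The assembly factors, which build the core and are not part of it, were called higher at 24 h of E2. All 5 measured were called there (median 1.42, against 16.8% of all genes), also without WT vehicle replicate 1. At 2 h limma called 0 of 5 under E2 (median -0.01, against 9.84% of all genes; no unadjusted p under 0.05) and 0 of 5 under IGF1 (median 0.39, against 9.54%), where Pomp changed by 0.77 (adjusted p = 0.0957) and alone had an unadjusted p under 0.05. Pomp, the maturation factor of the core, read 11.49, 11.60 and 11.45 in WT vehicle, 11.51, 11.84 and 11.65 at 2 h and 13.44, 13.54 and 13.48 at 24 h of E2. The 24 h arrays stood above all others (1.97, adjusted p = 3.55e-05), where at 2 h the change was 0.15. Psmg1 rose by 1.42, Psmg4 by 1.53, Psmg2 by 0.80 and Psmg3 by 0.48 at 24 h. In KO uteri 3 of 5 were called at 24 h of IGF1, with Pomp at 1.48 (adjusted p = 0.00233) and Psmg4 at 1.60 (adjusted p = 0.00579; 0.066 without KO vehicle replicate 2).

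The transcription factor Nfe2l1 went the other way in time. It read 10.96, 11.12 and 10.96 in WT vehicle, 12.46, 12.57 and 12.48 at 2 h of E2, and 11.41, 11.69 and 11.47 at 24 h. The early rise was 1.49 ± 0.16 (adjusted p = 3.16e-07) and the later level lay between (0.51, adjusted p = 0.0191, lost without WT vehicle replicate 1 at 0.0582, WT vehicle replicate 3 at 0.0524 or E2 24 h replicate 2 at 0.0884), with a fall between the times of 0.98 (adjusted p = 5.24e-05). IGF1 at 2 h gave 11.87, 12.33 and 11.59 (0.92, adjusted p = 0.000296). KO vehicle, at 11.48, 11.78 and 11.71, was above WT vehicle (0.64, adjusted p = 0.026), a call lost without any of 4 arrays, with adjusted p between 0.0782 and 0.143. The E2 interaction at 2 h was -1.07 ± 0.23 (adjusted p = 0.00385).

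Other genes of the same route moved in both directions. Ngly1, the enzyme that removes glycans from Nfe2l1 so that it can act, read 9.06, 9.29 and 9.30 in WT vehicle and 8.03, 8.43 and 8.45 at 2 h of E2. It fell by 0.92 there (adjusted p = 0.000114) and by 0.77 at 2 h of IGF1 (adjusted p = 0.00095). Nfe2l2, a related factor, rose at 2 h of IGF1 by 0.97 (adjusted p = 0.00581), and its 24 h E2 change of 0.67 (adjusted p = 0.0391) was 0.22 (adjusted p = 0.432) without WT vehicle replicate 1. Nfe2l3 fell by 1.42 in KO at 24 h of IGF1 (adjusted p = 3.73e-05).

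Among the activators that cap the core in place of the regulatory particle, Psme3 was an early responder. It read 9.85, 10.05 and 10.04 in WT vehicle, 11.77, 11.66 and 11.71 at 2 h of E2 and 11.56, 11.95 and 11.94 at 24 h, a plateau with no overlap with vehicle (1.73, adjusted p = 1.46e-05, and 1.83, adjusted p = 4.32e-06). Under IGF1 it was high at 2 h, at 11.87, 12.15 and 11.79 (1.96, adjusted p = 1.28e-05), and near vehicle at 24 h, at 10.30, 9.99 and 10.59 (0.31, adjusted p = 0.51). The fall of 1.64 between these times had an adjusted p of 7.58e-05. In KO at 2 h of IGF1 it read 11.99, 11.68 and 10.54 against 9.80, 10.24 and 10.16 in vehicle (1.34, adjusted p = 0.00262).

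**Figure D5:**
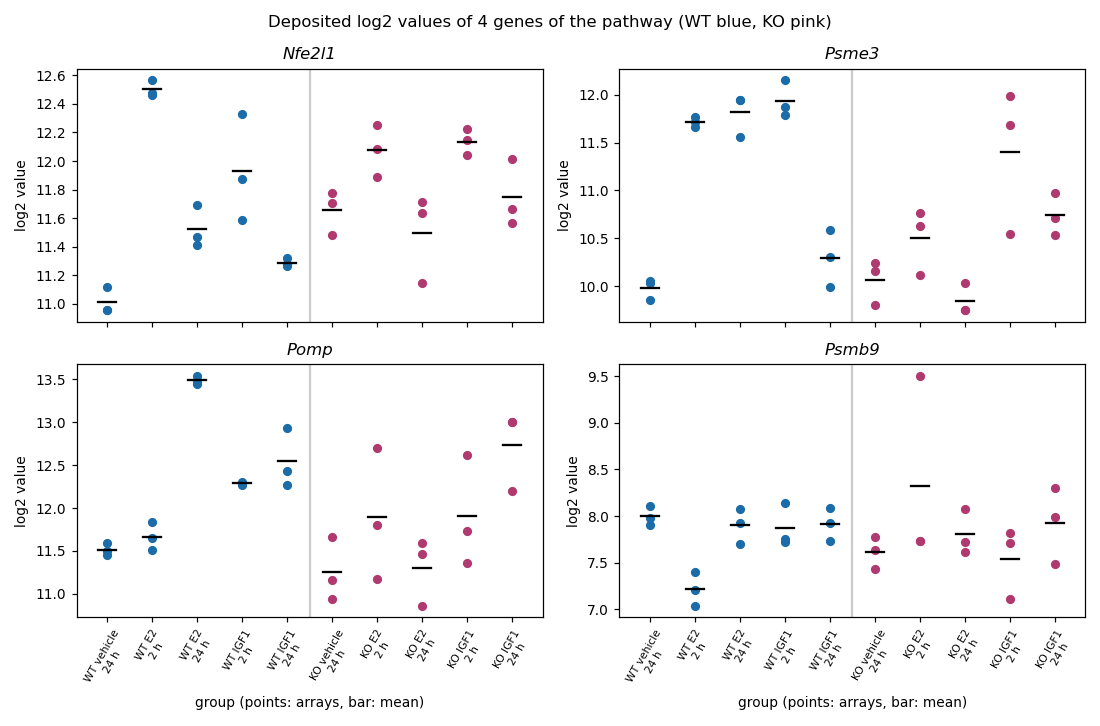
Log2 value on each array of Nfe2l1, Psme3, Pomp and Psmb9 in the 10 groups, with a bar at the mean of each group. Nfe2l1 is highest on the WT E2 2 h arrays (12.46 to 12.57), Pomp on the WT E2 24 h arrays (13.44 to 13.54), and 1 KO E2 2 h array stands out for Psmb9 (9.51).

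The immunoproteasome subunits, which replace the catalytic ones in immune cells and under interferon, did not join the rise as a group. Psmb8 and Psmb9 were not called in any comparison with vehicle, with changes of 0.18 and -0.09 at 24 h of E2 in WT. Psmb10 was called at 24 h of E2 in WT (1.32, adjusted p = 0.0207) and in KO at 24 h of IGF1 (1.5, adjusted p = 0.0189). Those calls were lost without either of WT vehicle replicates 1 and 2 (0.052 and 0.0611) and without either of KO vehicle replicates 1 and 2 (0.0567 and 0.105), among other arrays. On KO E2 2 h replicate 2 the 3 genes read 8.95, 9.51 and 9.51, above the other arrays of that group, and the mean of the macrophage markers spanned 8.28 to 10.51 in the group; its part was not tested.

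Several enzymes and carriers that work at the proteasome rose with it at 24 h of E2 in WT. The deubiquitinase Uchl5 read 11.22, 11.07 and 10.63 in vehicle, 10.83, 10.90 and 10.71 at 2 h and 12.70, 12.88 and 12.78 at 24 h (1.82, adjusted p = 6.19e-07), so it moved only at the later time. Vcp, the ATPase that extracts ubiquitinated proteins, rose by 1.82 as well (adjusted p = 8.3e-06), to 12.28, 12.48 and 12.19 from 10.13, 10.67 and 10.68. The shuttle factor Ubqln1 was already up at 2 h, at 10.36, 10.31 and 10.51 against 8.88, 9.37 and 9.40 (1.17, adjusted p = 0.000988), and was at 10.54, 10.66 and 10.86 at 24 h. Sem1, the small subunit of the lid whose symbol falls outside the naming rule, rose by 1.15 at 24 h of E2 in WT (adjusted p = 0.00963; 0.0636 without WT vehicle replicate 3) and by 1.58 in KO at 24 h of IGF1 (adjusted p = 0.00193).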

How the data were processed

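RNA from whole uteri (Trizol, then RNeasy; 300 ng per array, per the labels' protocols) was hybridised to whole-transcript Affymetrix arrays. The authors deposited log2 values for 72688 probe sets on 30 arrays; how these were background-corrected, normalized and summarized is not given in the labels or headers, and they were used unchanged. Of these probe sets 30604 had 1 gene symbol in the platform table, 2146 several and 39938 were not listed. Where a gene had several probe sets (355 genes, no member among them), the one with the highest mean was kept. One group-means model was fitted to 30142 genes and all 30 arrays with limma 3.58.1 in R 4.3.3 (20 residual degrees of freedom), checked on simulated data, with Benjamini-Hochberg adjustment within each of the comparisons. Tables and figures used Python 3.11.15 with pandas 2.3.3, numpy 2.4.6 and matplotlib 3.10.9.

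No depth exists for arrays; 3 arrays a group limit the precision. No pair of arrays was identical (highest correlation 0.995).

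The members and lists were chosen with earlier results of these data known. Named by rule were the subunits with the largest and smallest change, the catalytic ones, Psmd4, Psmd14 and set pathway genes; other genes were named after their values were seen. Psmb5 was on that list and has no value of its own.

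Groups share the replicate numbers 1 to 3. Deviations of same-numbered arrays correlated above 0.1 for every number in 1 of 45 pairs of groups (WT vehicle with KO vehicle). The median correlation was 0.0078 for equal and -0.00025 for unequal numbers, so the main fit did not take the numbers as pairs. With the replicate number as a block in the fit to all groups, KO against WT vehicle still called 0 constitutive subunits. Alternatives were array centring, quantile normalization, removal of dim genes, averaged probe sets, a fit to the compared groups alone, array weights, a trended robust prior, each array left out, the replicate number as a block and, added after seeing the data, both arrays of lowest weight left out.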

Additional observations from a re-analysis of the deposited data

Results flagged for a closer look

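The change under E2 differed between the genotypes by the interaction test (limma, adjusted p under 0.05) in the genes below, given as the KO change minus the WT change on the log2 scale. At 24 h this held for all 30 constitutive subunits. Among those named, the values were -3.33 for Psmc5, -2.58 for Psmb1, -2.29 for Psmb3, -2.25 for Psmb7, -1.89 for Psmb6, -1.44 for Psmd14, -1.30 for Psmd4 and -0.71 for Psma3. The partners Uchl5 (-2.55), Vcp (-2.40), Psme3 (-2.06), Pomp (-1.92), Ubqln1 (-1.31) and Nfe2l1 (-0.67) were below 0 too. The Nfe2l1 call at 24 h was lost without any of 7 arrays, with adjusted p between 0.056 and 0.135.

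At 2 h of E2 no constitutive subunit was called, while Nfe2l1 (-1.07), Psme3 (-1.30), Ngly1 (0.89) and Psmb9 (1.49) were. The Psmb9 difference was 0.90 (adjusted p = 0.0662) without KO E2 2 h replicate 2, and its call was also lost without 7 other arrays, WT vehicle replicates 1, 2 and 3 among them. The Psme3 call was lost without WT E2 2 h replicate 1 (adjusted p = 0.0508), KO E2 2 h replicate 3 (0.0651) or KO vehicle replicate 2 (0.0565).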

How the results depend on the processing

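Counts below are of the 30 constitutive subunits called, and a value marked as particle difference is the median change of the core minus that of the regulatory particle, on the log2 scale. The rise at 24 h of E2 in WT (30) and its interaction (30) gave 25 to 30 under every alternative run. Quantile normalization turned the sign of Psma3 at 24 h of E2 in WT (-0.12) and in the interaction (0.092), and called 13 in WT E2 against IGF1 at 24 h and 3 in WT IGF1 24 h against 2 h. Removing dim genes called 6 in KO IGF1 2 h, 2 in the E2 2 h interaction and 3 in WT IGF1 24 h against 2 h. A fit of the compared arrays alone called 0 in WT IGF1 24 h, 0 in KO IGF1 2 h and 1 in the E2 2 h interaction. Array weights called 1 in KO against WT vehicle, 22 in WT E2 2 h, 27 in WT IGF1 2 h, 24 in WT IGF1 24 h, 4 in the E2 2 h interaction and 5 in WT IGF1 24 h against 2 h. With the replicate number as a block, WT IGF1 24 h against 2 h called 2, WT IGF1 24 h 11 and WT E2 24 h against 2 h 26, and the other 15 counts kept their value. Without both arrays of lowest weight, an alternative chosen after seeing the data, WT IGF1 24 h called 3, and the particle difference was -0.27 in WT E2 2 h, -0.32 in WT IGF1 2 h and 0.094 in KO E2 24 h. The cause of these shifts was not tested. With each array left out in turn, the counts ran from 10 to 13 in WT E2 2 h, 11 to 17 in WT IGF1 2 h, 0 to 18 in WT IGF1 24 h, 0 to 11 in KO IGF1 2 h, 18 to 27 in KO IGF1 24 h, 0 to 1 in the E2 2 h interaction, 9 to 25 in WT E2 against IGF1 at 24 h, 22 to 25 in WT E2 24 h against 2 h, 0 to 1 in WT IGF1 24 h against 2 h and 0 to 1 in KO IGF1 against E2 at 2 h. The particle difference then ran from -0.27 to 0.079 in WT E2 2 h, -0.32 to -0.030 in WT IGF1 2 h and -0.34 to -0.076 in KO IGF1 2 h. It ran from -0.019 to 0.094 in KO E2 24 h and -0.089 to 0.12 in KO IGF1 24 h. Its sign thus turned in WT E2 2 h, KO E2 24 h and KO IGF1 24 h. The sign also turned in WT E2 24 h (-0.027 without E2 24 h replicate 2) and in KO E2 2 h (0.024 without KO vehicle replicate 1). In KO against WT vehicle it turned as well (-0.014 without WT vehicle replicate 1). Over all genes, centring each array on its median moved the share of calls that were higher from 51.7% to 66.3% in WT E2 2 h, from 55.8% to 69.6% in WT E2 24 h and from 55.5% to 70.8% in WT IGF1 2 h, and quantile normalization moved it from 68.1% to 52.9% in KO IGF1 24 h and from 77.5% to 66.8% in WT IGF1 24 h. The number of arrays limits the precision, and a difference that is small beside its SE could go uncalled.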
